A study of Homo sapiens with 24 samples.

Results

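The NRF2 targets and glutathione genes are a set of 33 named genes of the antioxidant response, taken by symbol from the 60675 genes counted in every library of this study. The set holds the transcription factor NRF2 (gene NFE2L2), its repressor KEAP1, the enzymes that make, recycle and use glutathione, and the thioredoxin system. It also holds enzymes that supply NADPH or act in the pentose phosphate pathway, here called NADPH genes. Quinone and carbonyl reductases, haem and iron genes and efflux pumps complete it. All 33 symbols were found, and the members were chosen by name, though with earlier results of these data known. RNA-seq was done in 2 human kidney lines, ACHN (labelled as clear cell renal cell carcinoma, ccRCC) and HK2 (labelled human kidney, a line of proximal tubule origin; the gene hexokinase 2 is not meant). Each line was studied in 4 states with 3 replicates each, 24 libraries in all. The states were shNC, a control hairpin; shKDM5C, a stable knockdown of the histone demethylase KDM5C; shYY1, a stable knockdown of the transcription factor YY1; and Dsh, the double knockdown. All lines carried lentiviral hairpins under puromycin selection. Dsh cells were shYY1 cells infected again with a GFP-labelled KDM5C hairpin and screened for green fluorescence, and no shNC group with that second vector was analysed here, so an effect of the second infection and one of losing both factors cannot be told apart.

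NRF2 is a transcription factor of the cap'n'collar family. In unstressed cells KEAP1 holds it in the cytoplasm and hands it to a ubiquitin ligase; oxidants and electrophiles disable KEAP1, and NRF2 then accumulates, pairs with a small MAF protein and binds antioxidant response elements near its target genes. Its targets make glutathione, reduce peroxides through thioredoxin and peroxiredoxin, and regenerate NADPH. The proximal tubule is a site of heavy oxidative metabolism and drug handling, and some kidney tumours have an active NRF2 programme. Because NRF2 is mostly controlled at the protein level, the mRNA of NFE2L2 does not report its activity.

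Part of the members have the core of the antioxidant response element, TGACNNNGC, in the RefSeq promoter window around their annotated starts (build GRCh38.p14, both strands searched). RefSeq windows were matched for 25 of the 33 members, with several starts for some genes, which gave 33 windows. The core was present in 11 of those 33 windows and in 13.3% of all 35116 promoter windows of the same length. The AP-1 motif TGANTCA was found in 3 member windows and 7.71% of all windows, and a YY1 motif, GCCATNTT, in 1 member window, that of AKR1C3, and 6.58% of all windows. In the windows of GSTP1 and ME1 the AP-1 motif lies inside the antioxidant core, so the letters count for both. No core was found in the windows of NQO1, SRXN1 or GSTM3, and no window was matched for HMOX1, PRDX1 and SLC7A11. Capitals mark the core in the stretches below, as its reverse complement where they begin with GC. The following stretches are from some of the members with a core whose values are given below, written 5′ to 3′ on the strand of each gene. They come from chr1:10398847-10398887 on the plus strand (PGD), chr12:104215664-104215704 and chr12:104286914-104286954 on the plus strand (2 starts of TXNRD1), chr6:83431164-83431204 on the minus strand (ME1), chr11:67583730-67583770 on the plus strand (GSTP1), chr1:93909440-93909480 on the minus strand (GCLM) and chr19:10502778-10502818 on the minus strand (KEAP1).
PGD: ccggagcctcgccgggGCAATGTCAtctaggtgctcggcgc
TXNRD1, upstream start: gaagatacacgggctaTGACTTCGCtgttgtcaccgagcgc
TXNRD1, downstream start: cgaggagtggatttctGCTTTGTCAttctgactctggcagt
ME1: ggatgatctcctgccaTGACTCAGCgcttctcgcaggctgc
GSTP1: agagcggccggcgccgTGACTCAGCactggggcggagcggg
GCLM: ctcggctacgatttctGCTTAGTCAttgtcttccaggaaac
KEAP1: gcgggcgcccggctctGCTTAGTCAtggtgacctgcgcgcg
These are matches of letters, not measured binding. The cores begin 201 bases before the start of PGD, 99 and 102 before the starts of TXNRD1, 137 before ME1, 66 before GSTP1, 34 before GCLM and 31 before KEAP1. KEAP1 has a further core 54 bases before its start, and ME1 and TXNRD1 each have another that reaches or lies past a start. GSTA4 has a core 9 bases before its start, and MGST1 has one past its start. These are not shown.

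The libraries held 15926561 to 24272298 counted fragments. KDM5C averaged 70.3 CPM (counts scaled to library size, with TMM factors) in ACHN shNC, 42.8 in shKDM5C and 40.4 in Dsh, and in HK2 it averaged 192, 56.9 and 68.0 CPM. YY1 averaged 138 CPM in ACHN shNC, 76.4 in shYY1 and 96.6 in Dsh, against 209, 64.1 and 74.0 CPM in HK2. In shYY1 KDM5C was above shNC, at 90.2 CPM in ACHN and 244 in HK2. HK2 shKDM5C replicate 1 stood apart before any member was considered: its root mean square distance in log2 CPM was 0.988 and 0.977 to replicates 2 and 3, which were 0.514 from each other, and it had 35.8 CPM of KDM5C against 67.9 and 66.9. Member values that rest on this library are given with and without it. Of 9 kidney epithelial markers, 7 were above 1 CPM in every group, while LRP2 and CUBN, which mark mature proximal tubule, were below it in both lines. Of 5 ccRCC markers, 4 were above 1 CPM in ACHN shNC and shKDM5C, 3 in shYY1 and 2 in Dsh. CA9 was below it in all ACHN groups. In HK2, 3 were above 1 CPM in shNC, 2 in shKDM5C and all 5 in shYY1 and Dsh. The 5 markers summed to 125 to 127 CPM in ACHN shNC and 85.4 to 93.8 in shKDM5C. They summed to 118 to 125 CPM in ACHN shYY1 and 337 to 354 in Dsh. The sum was 51.0 to 145 CPM over HK2 shNC, shKDM5C and shYY1 and 224 to 258 in HK2 Dsh. Of 4 tested in ACHN Dsh against shNC, 1 was higher and 3 lower (edgeR, background 62.6% of all genes called). The larger sum there thus came from 1 marker. Of 5 tested in HK2 Dsh, 3 were higher and 1 lower (background 49.8%). The summed kidney epithelial markers were lower in Dsh, at 1662 to 1814 CPM against 2368 to 2397 in ACHN shNC and 1489 to 1610 CPM against 2892 to 2996 in HK2 shNC. Of 3 fibroblast markers COL3A1 was below 1 CPM in every group, and the sum ran from 581 to 633 CPM in ACHN shNC, 74.0 to 78.5 in shKDM5C, 189 to 196 in shYY1 and 135 to 151 in Dsh, and from 15.2 to 33.9 over the HK2 groups. Summed leukocyte markers reached 0.408 CPM and summed endothelial markers 1.77 CPM in any library. The part of these marker differences in the results was not tested, and in bulk RNA fewer cells of a type and less RNA per cell cannot be told apart.

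The control cells of the lines differed in most members before any knockdown. Of 28 members tested, 19 were higher and 7 lower in ACHN shNC than in HK2 shNC (edgeR quasi-likelihood test, adjusted p under 0.05 over all genes), on a background of 76.6% of all genes tested called in that comparison, 38.6% higher and 38.0% lower. The median member was 0.48 higher on the log2 scale in ACHN, against 0.02 over all genes. ABCC3, an efflux pump for conjugated organic anions, had 167 ± 6.08 CPM in ACHN and 28.7 ± 0.877 in HK2 (SD, n = 3), a log2 difference of 2.55 ± 0.05 (SE, adjusted p = 8.51e-26). NQO1, the quinone reductase that is the best known NRF2 target, had 283 ± 4.31 against 90.4 ± 1.19 CPM, a log2 difference of 1.65 ± 0.04 (adjusted p = 2.32e-24). GSTM3, a mu class glutathione transferase, had a log2 difference of 1.61, FTL, the ferritin light chain, one of 1.32, and AKR1C1, a keto reductase present at low counts, one of 1.04. In the other direction, ABCC2, a second efflux pump, was lower in ACHN by a log2 difference of -1.51. SLC7A11 and GSR missed the threshold in this comparison, with log2 differences of 0.14 and 0.03.

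**Figure D1:**
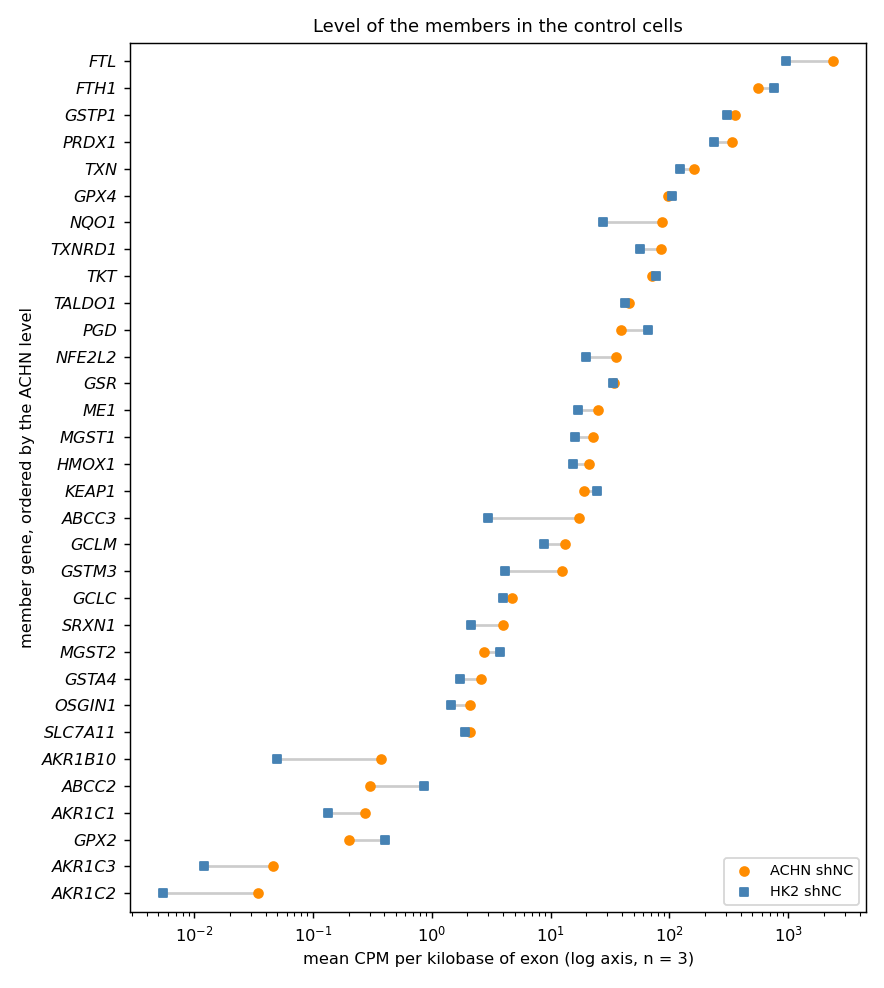
Mean level of each member with counts in both lines, in ACHN shNC (orange circles) and HK2 shNC (blue squares), as CPM per kilobase of exon on a log axis; a grey line joins the lines' values for a gene. FTL and FTH1 head the order and the AKR1C genes close it, and ABCC3, NQO1 and GSTM3 show long gaps with ACHN higher.

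Per kilobase of exon, the members spanned several orders of magnitude in control cells. FTL had 2379 CPM per kilobase in ACHN shNC and 958 in HK2 shNC, FTH1 had 554 and 759.7, and SLC7A11 had 2.10 and 1.92. At the low end, GSTM1 had 0 counts in all 24 libraries, which allows a level of up to 0.124 to 0.188 CPM by library (3 counts, counting error only). GPX2, AKR1C2 and AKR1C3 stayed below the low-count filter in every comparison of 3 knockdown with 3 shNC libraries, and AKR1B10 passed it there in ACHN only. With no filter AKR1C2 was called lower in ACHN shKDM5C (adjusted p = 0.00749), with 0 counts in each library against 6, 5 and 2 in shNC, and AKR1C3 higher in ACHN Dsh (1.59, adjusted p = 0.0226), with 14, 4 and 24 counts against 7, 3 and 2. AKR1C3 also had 20, 9 and 13 counts in HK2 shKDM5C against 3, 0 and 0 in HK2 shNC (adjusted p = 0.0949 with no filter). Per-kilobase levels are understated where fragments that touch another gene were left out. SRXN1 shares 85% of its exon bases with an overlapping gene model and FTH1 shares 62.4% with BEST1. Smaller parts are shared by PRDX1 (24.9%, with MMACHC), NQO1 (17.7%) and NFE2L2 (17.6%, with 1 gene model), among others. FTH1, FTL, PRDX1 and TXN have processed pseudogenes, and the AKR1C and GSTM genes have close paralogs, so their counts are less certain than those of the other members.

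Set against shNC of the same line, the double knockdown of ACHN lowered the thioredoxin and NADPH genes of the set, all 8 of them. It raised all 3 haem and iron genes, though FTH1 only slightly. Of all genes tested in ACHN Dsh, 62.6% were called, 30.7% higher and 32.0% lower. The FTH1 call was lost in several fits that left out a library (edgeR adjusted p up to 0.123). In HK2 the same double knockdown raised the haem and iron genes too, but 3 of the 4 thioredoxin genes were higher and none lower. There 5 of 5 glutathione transferases tested were lower. Of all genes tested in HK2 Dsh, 49.8% were called, 25.5% higher and 24.3% lower. Members called past a log2 change of 1.5 in size were SRXN1 (log2 fold change -2.29) and AKR1B10 (1.98) in ACHN Dsh. The only others were HMOX1 in ACHN shKDM5C (1.99) and GSTA4 in HK2 Dsh (-1.90). That fold limit is the study's, which paired it with a P value under 0.05 and used DESeq2. The calls here used an adjusted p under 0.05 in edgeR. Of all genes tested, 3.34%, 3.13% and 8.42% passed that limit in ACHN shKDM5C, shYY1 and Dsh, and 0.501%, 1.29% and 4.30% in the same HK2 states. In ACHN, 11 of 29 members tested were higher and 7 lower in shKDM5C (background 56.6% of all genes called, 28.9% higher and 27.7% lower), 7 higher and 8 lower in shYY1 (background 48.7%, 24.2% higher and 24.5% lower), and 8 higher and 15 lower in Dsh (background 62.6%, 30.7% higher and 32.0% lower). The median member tested changed by -0.41 on the log2 scale in ACHN Dsh, where the median over all genes was -0.01, and by 0.07 and 0.03 in the single knockdowns.

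In HK2, 12 of 28 members tested were higher and 5 lower in shYY1 (background 29.1%, 14.3% higher and 14.7% lower), and 11 were higher and 8 lower in Dsh (background 49.8%, 25.5% higher and 24.3% lower), with median log2 changes of 0.15 and 0.08. A fit over all 12 HK2 libraries, the one that stands apart included, called 5 members in shYY1 (background 5.42%), 10 in Dsh (background 22.9%) and 4 in shKDM5C (background 7.84%). No member was called by edgeR in HK2 shKDM5C with all 3 replicates (background 1.32%), where 7 members had an unadjusted p under 0.05 and DESeq2 called 4. Without replicate 1 of that group, 14 of 29 were called, 11 higher and 3 lower (background 22.3%, 11.5% higher and 10.9% lower). As a share of the members tested, the calls came to 62.1%, 51.7% and 79.3% in ACHN shKDM5C, shYY1 and Dsh and to 60.7% and 67.9% in HK2 shYY1 and Dsh, so that both ACHN single knockdowns were near their background. Most members are well expressed, which makes a call more likely, and no comparison matched on expression was made. Nothing in the labels says that replicates were separate cultures, so p-values measure the spread between these libraries. An exact permutation test of 3 against 3 libraries could not go below 0.1 and was not used.

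**Figure D2:**
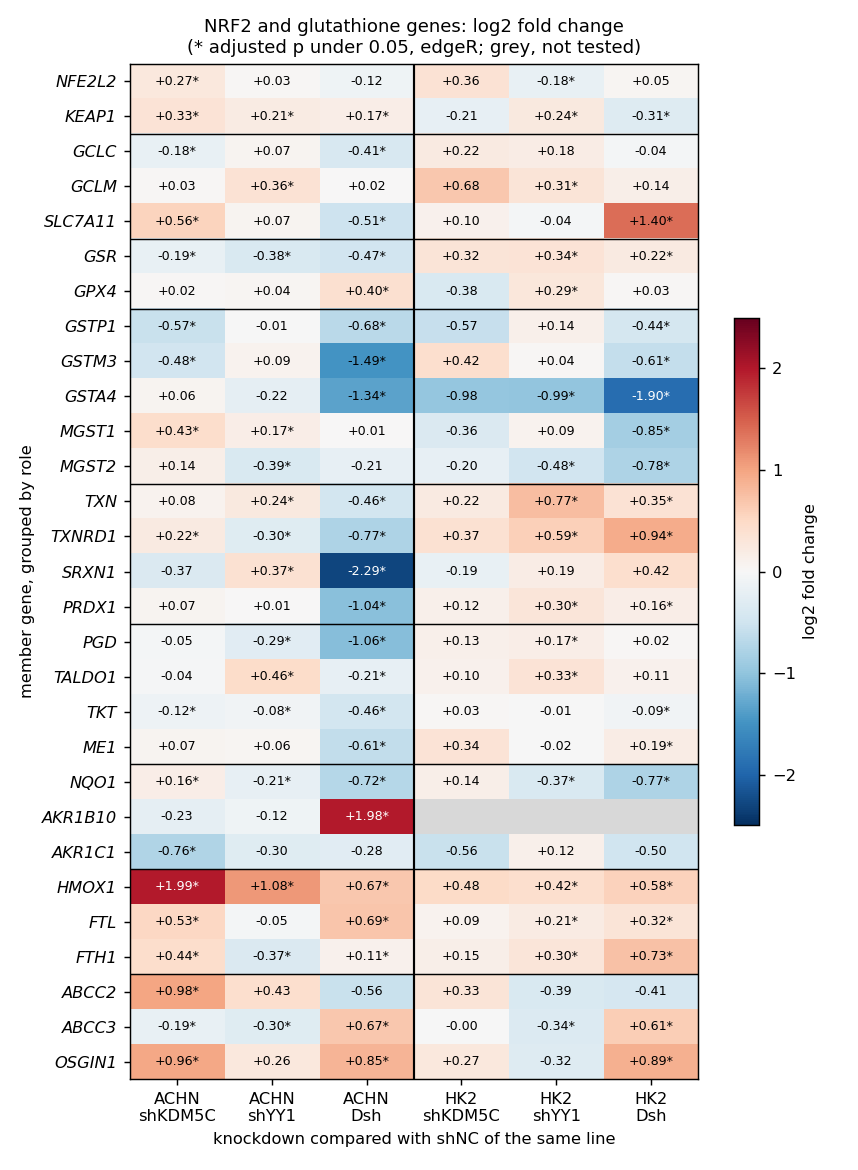
Log2 fold change of each member tested, by role (rows), in the 6 comparisons of a knockdown with shNC of the same line (columns); red is higher and blue lower than shNC, an asterisk marks an adjusted p under 0.05 (edgeR), grey was not tested. The thioredoxin and NADPH rows are blue in ACHN Dsh and pale or red in HK2 Dsh. The haem and iron rows are red in both, FTH1 only faintly in ACHN Dsh. The HK2 shKDM5C column holds all 3 replicates and has no asterisk.

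The mRNA of NFE2L2 itself (chr2:177227595-177392697) changed little. In ACHN it had 213, 211 and 212 CPM in the shNC replicates, 256, 262 and 259 in shKDM5C, 222, 219.8 and 218 in shYY1 and 192, 213 and 181 in Dsh. The shKDM5C libraries were above all others (log2 fold change 0.27 ± 0.03, adjusted p = 3.63e-08), and the Dsh libraries overlapped shNC (-0.12, adjusted p = 0.0608). In HK2 the values were 121, 121 and 117 CPM in shNC, 176, 141 and 137 in shKDM5C, 99.8, 106 and 112 in shYY1 and 118, 125 and 127 in Dsh. HK2 shYY1 lay below shNC (-0.18, adjusted p = 0.0201), a call lost when a single library was left out (adjusted p up to 0.077). HK2 shKDM5C lay above shNC in all replicates but was called only without replicate 1 (log2 fold change 0.21, adjusted p = 0.00279).

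KEAP1 (chr19:10486120-10503741), the repressor that binds NRF2, had 76.7, 69.5 and 70.9 CPM in ACHN shNC, 94.5, 93.7 and 88.3 in shKDM5C, 86.4, 86.6 and 82.8 in shYY1 and 80.2, 78.7 and 85.2 in Dsh. All 3 knockdown states were above shNC, with log2 fold changes of 0.33, 0.21 and 0.17 and adjusted p of 6.74e-07, 9.65e-05 and 0.0106; the last was lost without ACHN shNC replicate 2 or 3 (adjusted p up to 0.0794). In HK2 it had 89.1, 89.4 and 101 CPM in shNC, 60.7, 90.3 and 88.8 in shKDM5C, 109, 102 and 121 in shYY1 and 75.7, 69.8 and 78.1 in Dsh. KEAP1 was thus higher in HK2 shYY1 (0.24, adjusted p = 0.00733, up to 0.0821 when a library was left out) and lower in HK2 Dsh (-0.31, adjusted p = 6.35e-05). The Dsh effect differed between the lines by 0.51 ± 0.09 on the log2 scale (adjusted p = 1.38e-05).

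All 4 thioredoxin genes fell in ACHN Dsh. SRXN1, sulfiredoxin, which restores over-oxidised peroxiredoxins, had 9.31, 11.9 and 11.0 CPM in ACHN shNC, 11.3, 4.13 and 9.66 in shKDM5C, 13.5, 11.3 and 17.5 in shYY1 and 1.95, 1.71 and 2.76 in Dsh. The Dsh libraries lay below all the other ACHN libraries, 4.90-fold lower than shNC (log2 fold change -2.29 ± 0.17, adjusted p = 1.5e-09). ACHN shYY1 overlapped shNC and its call (0.37, adjusted p = 0.00853) was lost without shNC replicate 1 or shYY1 replicate 3 (adjusted p up to 0.189). In HK2 SRXN1 had 6.39, 5.00 and 6.09 CPM in shNC, 1.44, 6.59 and 7.14 in shKDM5C, 8.08, 6.36 and 5.48 in shYY1 and 5.94, 9.92 and 7.32 in Dsh. None of the HK2 knockdowns passed the test, and the HK2 groups overlapped; shKDM5C had -0.19 (adjusted p = 0.852), and 0.23 (adjusted p = 0.4) without replicate 1.

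PRDX1, the abundant peroxiredoxin that SRXN1 repairs, had 503, 518 and 517 CPM in ACHN shNC, 545, 603 and 486 in shKDM5C, 544, 505 and 526 in shYY1 and 284, 233 and 231 in Dsh. The Dsh libraries were again apart and below (log2 fold change -1.04 ± 0.06, adjusted p = 5.1e-11), and the single knockdowns overlapped shNC. In HK2 it had 359, 361 and 373 CPM in shNC, 333, 416 and 426 in shKDM5C, 452, 417 and 474 in shYY1 and 428, 399.7 and 386 in Dsh. PRDX1 rose there in shYY1 (0.30, adjusted p = 6.94e-05) and Dsh (0.16, adjusted p = 0.00245), and in shKDM5C it was called only without replicate 1 (0.12, adjusted p = 0.604; 0.20, adjusted p = 0.000275 without it).

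TXNRD1, thioredoxin reductase, fell in ACHN and rose in HK2 in shYY1 and Dsh. It had 584, 558 and 562 CPM in ACHN shNC, 672, 665 and 673 in shKDM5C, 473, 465 and 473 in shYY1 and 345, 331 and 322 in Dsh. No ACHN groups overlapped, with shKDM5C above shNC (0.22 ± 0.03), shYY1 below (-0.30 ± 0.03) and Dsh below both (-0.77 ± 0.04; adjusted p = 2.23e-07, 2.34e-11 and 2.06e-11). In HK2 TXNRD1 had 386, 380.0 and 381 CPM in shNC, 504, 476 and 489 in shKDM5C, 568, 574 and 590.1 in shYY1 and 718, 712 and 751 in Dsh. The HK2 groups did not overlap either and stood in that order, with log2 fold changes of 0.37 (adjusted p = 0.161; 0.33 and 2.53e-07 without replicate 1), 0.59 (6.55e-10) and 0.94 (7.92e-19). The shKDM5C values lay above shNC in both lines and differed between them by -0.14 (adjusted p = 0.319; -0.10, adjusted p = 0.0775 without replicate 1). TXN, thioredoxin itself, rose in shYY1 in ACHN (0.24) and HK2 (0.77), and in Dsh it fell in ACHN (-0.46) and rose in HK2 (0.35).

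**Figure D3:**
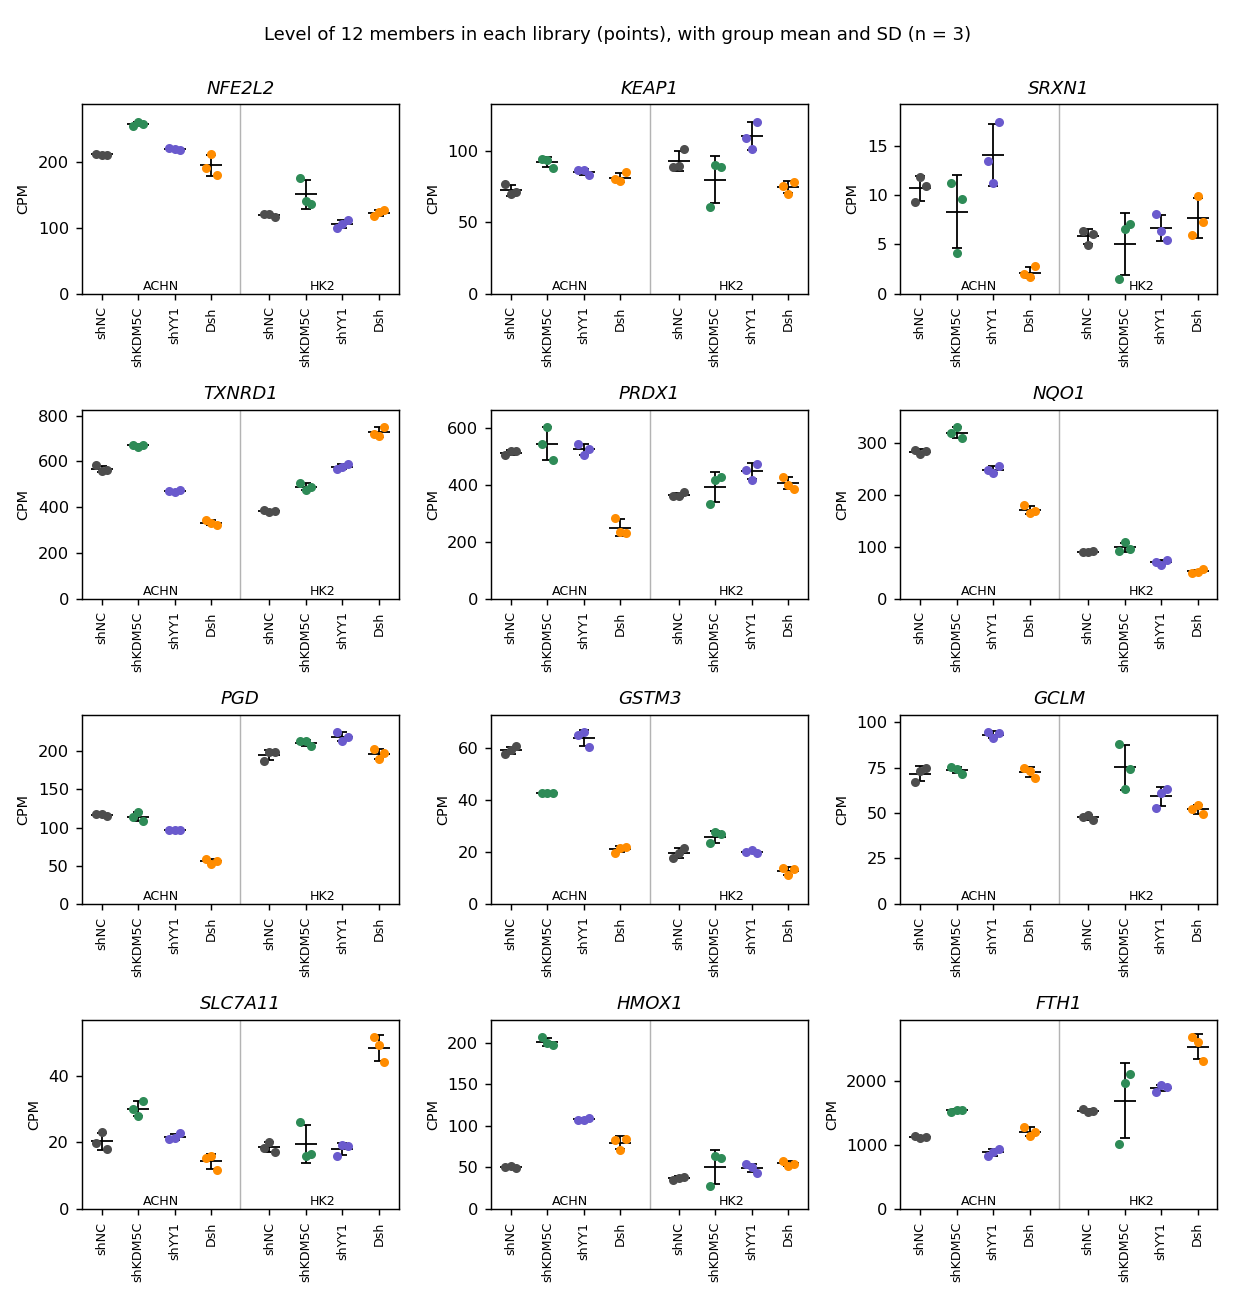
Level of 12 members in CPM (linear axis from 0) in each of the 24 libraries (points) by line and state, with the group mean (bar) and SD (whiskers, n = 3). SRXN1, PRDX1, TXNRD1, NQO1, PGD and GSTM3 are lowest in ACHN Dsh among the ACHN groups, TXNRD1 and SLC7A11 are highest in HK2 Dsh among the HK2 groups, and HK2 shKDM5C replicate 1 (leftmost green point in HK2) stands off in SRXN1, HMOX1 and FTH1.

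PGD, 6-phosphogluconate dehydrogenase, which makes NADPH in the pentose phosphate pathway, had 117, 118 and 116 CPM in ACHN shNC, 114, 120.1 and 109 in shKDM5C, 97.3, 97.4 and 96.8 in shYY1 and 58.9, 52.7 and 56.4 in Dsh. It fell in ACHN shYY1 (log2 fold change -0.29, adjusted p = 1.94e-08) and further in Dsh (-1.06 ± 0.05, adjusted p = 2.69e-12). In HK2 PGD had 187, 199 and 198 CPM in shNC, 213, 213 and 207 in shKDM5C, 225, 213 and 219 in shYY1 and 203, 189 and 197 in Dsh. The HK2 Dsh libraries overlapped shNC (0.02, adjusted p = 0.74), and the shYY1 rise (0.17, adjusted p = 0.012) was lost without HK2 shNC replicate 1 (adjusted p = 0.0872). Of the other genes grouped here as NADPH genes, ME1 (malic enzyme) fell in ACHN Dsh by -0.61 on the log2 scale. TKT (transketolase) and TALDO1 (transaldolase), pentose phosphate enzymes that do not make NADPH themselves, fell there by -0.46 and -0.21. TALDO1 rose in shYY1 in both lines, by 0.46 in ACHN and 0.33 in HK2. TKT in HK2 shKDM5C had 0.03 (adjusted p = 0.922), and 0.17 (adjusted p = 0.000281) without replicate 1.

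NQO1 had 286, 278 and 285 CPM in ACHN shNC, 319, 331 and 309 in shKDM5C, 249, 242 and 255 in shYY1 and 180.0, 165 and 168 in Dsh. In HK2 it had 89.9, 89.6 and 91.8 CPM in shNC, 91.7, 108 and 95.8 in shKDM5C, 70.1, 65.1 and 74.5 in shYY1 and 50.0, 51.4 and 56.3 in Dsh. NQO1 was lower than shNC in shYY1 and lower still in Dsh in both lines, and the groups did not overlap: the log2 fold changes were -0.21 and -0.72 in ACHN (adjusted p = 3.19e-07 and 1.06e-10) and -0.37 and -0.77 in HK2 (adjusted p = 6.39e-05 and 2.69e-12). Its Dsh effect differed between the lines by 0.07 ± 0.07 (adjusted p = 0.452). In shKDM5C it was slightly higher in ACHN (0.16, adjusted p = 0.000102), and in HK2 it was called only without replicate 1 (0.17, adjusted p = 0.0374).

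Among the other reductases, AKR1B10, an aldo-keto reductase of aldehydes and retinal, was scarce in ACHN, with 0.624, 0.322 and 1.02 CPM in shNC, 0.590, 0.391 and 0.705 in shKDM5C and 0.583, 0.429 and 0.835 in shYY1. In Dsh it had 3.49, 1.98 and 2.31 CPM, above every other ACHN library (log2 fold change 1.98 ± 0.35, adjusted p = 8.09e-05). In HK2 its highest count gave 0.475 CPM, and it was not tested against shNC there. AKR1C1 fell in ACHN shKDM5C (-0.76) on counts of 7 to 48 over all libraries.

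Glutathione synthesis starts with glutamate-cysteine ligase, made of a catalytic subunit, GCLC, and a modifier, GCLM. GCLC had 41.5, 38.5 and 40.3 CPM in ACHN shNC, 34.4, 35.3 and 37.7 in shKDM5C, 43.8, 41.6 and 43.0 in shYY1 and 27.8, 34.0 and 29.0 in Dsh. It fell in ACHN Dsh (log2 fold change -0.41, adjusted p = 0.000142) and less in shKDM5C (-0.18, adjusted p = 0.0114, up to 0.0635 when a library was left out). In HK2, with 32.5, 33.1 and 36.1 CPM in shNC, 44.2, 37.2 and 35.3 in shKDM5C, 36.2, 39.7 and 39.2 in shYY1 and 31.8, 34.3 and 32.0 in Dsh, no GCLC difference from shNC passed the test, that of shKDM5C without replicate 1 included (adjusted p = 0.488). GCLM had 66.9, 73.4 and 74.8 CPM in ACHN shNC, 75.4, 74.2 and 71.7 in shKDM5C, 94.7, 91.2 and 94.0 in shYY1 and 74.9, 73.0 and 69.5 in Dsh. In HK2 it had 47.8, 49.0 and 46.0 CPM in shNC, 88.0, 63.2 and 74.1 in shKDM5C, 52.9, 61.2 and 63.3 in shYY1 and 52.5, 54.2 and 49.4 in Dsh. GCLM rose in shYY1 in both lines (0.36, adjusted p = 1.05e-08 in ACHN; 0.31, adjusted p = 0.00206 in HK2), and the Dsh values were 0.02 and 0.14 with adjusted p of 0.802 and 0.0871. All 3 HK2 shKDM5C libraries lay above shNC for GCLM (0.68, adjusted p = 0.119; 0.52, adjusted p = 6.56e-06 without replicate 1).

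SLC7A11, the transport chain of the cystine importer xCT, fell in ACHN Dsh and rose in HK2 Dsh. It had 19.7, 23.0 and 18.1 CPM in ACHN shNC, 30.1, 27.8 and 32.3 in shKDM5C, 20.9, 21.3 and 22.7 in shYY1 and 15.3, 15.9 and 11.7 in Dsh. ACHN shKDM5C was higher (0.56 ± 0.08, adjusted p = 1.89e-06) and ACHN Dsh lower (-0.51 ± 0.12, adjusted p = 0.000886). In HK2 it had 18.3, 20.0 and 17.1 CPM in shNC, 26.1, 15.9 and 16.6 in shKDM5C, 15.9, 19.3 and 18.8 in shYY1 and 51.5, 49.2 and 44.1 in Dsh. The HK2 Dsh libraries were 2.63-fold above shNC (log2 fold change 1.40 ± 0.09, adjusted p = 1.48e-14), and neither single knockdown passed the test; shKDM5C had 0.10 (adjusted p = 0.833), and -0.19 (adjusted p = 0.263) without replicate 1. SLC7A11 is also a target of ATF4, the factor of the amino acid response, so ATF4 and 9 of its other targets were read beside it. In HK2 Dsh 9 of these 10 genes were higher and none lower (background 49.8%, 25.5% higher and 24.3% lower). Their median was 1.63 on the log2 scale against -0.00265 over all genes. CHAC1, which degrades glutathione, rose by 2.44, DDIT3 by 2.06 and ASNS, asparagine synthetase, by 1.60. In ACHN Dsh 1 of the 10 was higher and 5 lower, ASNS by -0.77 among them. The share called there was near the background of 62.6% (30.7% higher and 32.0% lower). In HK2 shYY1, where SLC7A11 did not pass the test, 6 of 10 were higher and none lower (background 29.1%, 14.3% higher and 14.7% lower). In ACHN shKDM5C, where SLC7A11 rose, 6 were higher and 1 lower (background 56.6%, 28.9% higher and 27.7% lower). ACHN shYY1 had 2 higher and 3 lower (background 48.7%). HK2 shKDM5C had none called (background 1.32%), or 3 higher and 2 lower without replicate 1 (background 22.3%). The part of ATF4 in the SLC7A11 difference was not tested.

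The glutathione transferases, which couple glutathione to electrophiles, were mostly lower in Dsh. GSTM3 had 57.9, 59.1 and 60.7 CPM in ACHN shNC, 42.7, 42.8 and 42.9 in shKDM5C, 65.1, 66.3 and 60.3 in shYY1 and 19.8, 21.7 and 21.8 in Dsh. It fell in ACHN shKDM5C (-0.48 ± 0.05, adjusted p = 4.89e-09) and 2.80-fold in Dsh (-1.49 ± 0.07, adjusted p = 6.8e-13). In HK2 GSTM3 had 17.6, 19.5 and 21.4 CPM in shNC, 23.3, 27.5 and 26.7 in shKDM5C, 20.0, 20.6 and 19.4 in shYY1 and 13.7, 11.0 and 13.5 in Dsh. HK2 Dsh was lower (-0.61 ± 0.12, adjusted p = 6.29e-05), while shKDM5C lay above shNC (0.42, adjusted p = 0.239; 0.47, adjusted p = 0.00148 without replicate 1), so that the shKDM5C effect differed between the lines by -0.90 ± 0.13 (adjusted p = 0.00129; -0.95 ± 0.10, adjusted p = 8.97e-09 without replicate 1).

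GSTA4, the transferase that detoxifies the lipid peroxidation product 4-hydroxynonenal, had 5.20, 6.07 and 5.64 CPM in ACHN shNC, 6.06, 6.08 and 5.70 in shKDM5C, 5.04, 5.10 and 4.62 in shYY1 and 2.51, 1.60 and 2.48 in Dsh. In HK2 it had 3.69, 3.61 and 4.07 CPM in shNC, 2.26, 1.99 and 1.47 in shKDM5C, 1.37, 2.79 and 1.56 in shYY1 and 0.764, 1.40 and 0.851 in Dsh. It fell in Dsh in both lines (-1.34 ± 0.19, adjusted p = 6.16e-06 in ACHN; -1.90 ± 0.30, adjusted p = 3.96e-06 in HK2), and in HK2 it also fell in shYY1 (-0.99 ± 0.28, adjusted p = 0.00903) and lay below shNC in every shKDM5C library (-0.98, adjusted p = 0.156; -1.13, adjusted p = 0.00357 without replicate 1). GSTP1, the most abundant transferase, fell in Dsh in ACHN (-0.68) and HK2 (-0.44) and in ACHN shKDM5C (-0.57). MGST1, a membrane transferase, fell in HK2 Dsh (-0.85) and rose in ACHN shKDM5C (0.43) and shYY1 (0.17). In HK2 shKDM5C GSTP1 had -0.57 (adjusted p = 0.362) and MGST1 -0.36 (adjusted p = 0.191), and both were called without replicate 1 (-0.30, adjusted p = 1.24e-05, and -0.37, adjusted p = 1.35e-05).

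Of the genes that recycle glutathione and reduce peroxides with it, GSR, glutathione reductase, fell in all 3 ACHN knockdown states (-0.19, -0.38 and -0.47 on the log2 scale, in the order shKDM5C, shYY1, Dsh) and rose in HK2 shYY1 (0.34) and Dsh (0.22). In HK2 shKDM5C GSR was called only without replicate 1 (0.32, adjusted p = 0.232; 0.35, adjusted p = 1.86e-05 without it). GPX4, which reduces lipid hydroperoxides and guards against ferroptosis, rose in ACHN Dsh (0.40) and HK2 shYY1 (0.29) and had 72.6 CPM in HK2 shKDM5C replicate 1, where replicates 2 and 3 averaged 206 CPM (-0.38, adjusted p = 0.583; -0.04, adjusted p = 0.595 without replicate 1).

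HMOX1, haem oxygenase 1, which breaks haem down and releases its iron, showed the largest rise of the set with a single knockdown. It had 50.0, 51.4 and 49.5 CPM in ACHN shNC, 207, 199.6 and 198 in shKDM5C, 107, 107 and 110.0 in shYY1 and 83.5, 71.3 and 84.7 in Dsh. The ACHN groups did not overlap: shKDM5C was 3.96-fold above shNC (log2 fold change 1.99 ± 0.04, adjusted p = 2.83e-23), shYY1 2.11-fold (1.08 ± 0.04, adjusted p = 2.03e-21) and Dsh 1.59-fold (0.67 ± 0.06, adjusted p = 3.35e-08). In HK2 HMOX1 had 34.4, 36.9 and 39.1 CPM in shNC, 27.4, 63.7 and 61.4 in shKDM5C, 53.5, 50.7 and 43.4 in shYY1 and 58.1, 51.6 and 54.6 in Dsh. It rose in HK2 shYY1 (0.42 ± 0.08, adjusted p = 0.000418) and Dsh (0.58 ± 0.07, adjusted p = 5e-08). In HK2 shKDM5C replicate 1 lay below shNC and the others above (0.48, adjusted p = 0.445; 0.76, adjusted p = 2.15e-08 without replicate 1).

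FTL and FTH1, the ferritin chains that store iron, rose with HMOX1 in most states. FTL rose in ACHN shKDM5C (0.53) and Dsh (0.69) and in HK2 shYY1 (0.21) and Dsh (0.32), and had -0.05 in ACHN shYY1 (adjusted p = 0.115). FTH1 rose in ACHN shKDM5C (0.44) and HK2 shYY1 (0.30) and further in HK2 Dsh, from 1542 ± 30.1 to 2543 ± 196 CPM (SD, n = 3; log2 fold change 0.73 ± 0.04, adjusted p = 1.42e-15), and fell in ACHN shYY1 (-0.37). Its call in ACHN Dsh (0.11, adjusted p = 0.0329) was lost when any of 4 libraries, the 3 of shNC or Dsh replicate 1, was left out (adjusted p up to 0.123). In HK2 shKDM5C FTL had 0.09 (adjusted p = 0.794) and FTH1 0.15 (adjusted p = 0.757), and both were called without replicate 1 (0.25, adjusted p = 5.41e-06, and 0.40, adjusted p = 9.46e-10).

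Of the remaining members, ABCC3 fell slightly in shYY1 (-0.30 in ACHN, -0.34 in HK2), a call lost in HK2 without shYY1 replicate 3 (-0.28, adjusted p = 0.0603), and rose in Dsh in both lines (0.67 and 0.61). OSGIN1, an oxidative stress induced growth inhibitor, rose in Dsh in both lines as well (0.85 and 0.89) and in ACHN shKDM5C (0.96). ABCC2 had 2.18, 1.34 and 2.10 CPM in ACHN shNC, 3.65, 3.63 and 3.96 in shKDM5C, 2.12, 2.68 and 2.89 in shYY1 and 1.23, 0.992 and 1.54 in Dsh. It rose in ACHN shKDM5C (0.98 ± 0.21, adjusted p = 0.000284), and Dsh, which overlapped shNC, was lower than shKDM5C (-1.53 ± 0.23, adjusted p = 2.08e-05) and shYY1 (-1.0003 ± 0.26, adjusted p = 0.00296).

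The double knockdown can also be set against each single knockdown, and its log2 effect against both single effects added up (the interaction). In ACHN the depletion was not alike in these states. YY1 was higher in Dsh than in shYY1, and the interaction was called for KDM5C and YY1 themselves. In ACHN, 4 members were higher and 21 lower in Dsh than in shKDM5C (background 62.5%, 31.6% higher and 30.9% lower), 6 higher and 19 lower than in shYY1 (background 64.6%, 32.0% higher and 32.7% lower), and the interaction was above 0 for 4 members and below 0 for 20 of 29 tested (background 55.6%, 26.8% above and 28.8% below 0). The lowest interaction was that of HMOX1, -2.41 ± 0.07 (adjusted p = 4.07e-19): the single knockdowns each raised it, and Dsh had less of it than either. For SRXN1 it was -2.31 ± 0.34 (adjusted p = 2.39e-06) and for PRDX1 -1.14 ± 0.09 (adjusted p = 5.82e-11), both genes whose single knockdown libraries overlapped shNC. TXNRD1, PGD and NQO1 had interactions of -0.72, -0.74 and -0.70, and SLC7A11, which shKDM5C had raised, one of -1.17. AKR1B10 (2.30) and ABCC3 (1.13) had the highest positive values. ABCC2 had -1.98 ± 0.33, and for OSGIN1 the call (-0.40) was lost in 7 of 12 fits that left out a library.

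In HK2, Dsh differed from shYY1 in 18 of 28 members, 7 higher and 11 lower (background 47.7%, 24.8% higher and 22.9% lower), and from shKDM5C in 6, 3 higher and 3 lower (background 11.9%, 6.26% higher and 5.59% lower), or in 16, 6 higher and 10 lower, without replicate 1 (background 43.3%, 22.2% higher and 21.0% lower). The HK2 interaction was called for 8 members, 2 above and 6 below 0 (background 9.61%, 5.21% above and 4.40% below 0), or for 18 of 29, 3 above and 15 below 0, without replicate 1 (background 28.7%, 15.0% above and 13.7% below 0). SLC7A11 had the highest value (1.34 ± 0.26, adjusted p = 0.00641; 1.63 without replicate 1), followed by ABCC3 (0.94; 0.83 without it), and GSTM3 had the lowest (-1.07 ± 0.18, adjusted p = 0.00243; -1.11 without it). GCLM had -0.86 (-0.69 without replicate 1) and NQO1 -0.54 (-0.56), whose call was lost in 7 of 12 fits that left out a library (adjusted p up to 0.071). The interactions of SRXN1 and TXNRD1 in HK2 were 0.40 and -0.03 (adjusted p = 0.699 and 0.867). Without replicate 1 they were 0.01 and 0.02 (adjusted p = 0.992 and 0.863). Other genes named for ACHN were below 0 in HK2 too without replicate 1. HMOX1 had -0.59 (adjusted p = 0.000152), PRDX1 -0.33 (adjusted p = 0.000526) and PGD -0.24 (adjusted p = 0.00789), none of them called with all replicates. TXN had -0.48 (adjusted p = 0.000178) without replicate 1. Its call with all replicates was lost in several fits that left out a library (adjusted p up to 0.103).

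**Figure D4:**
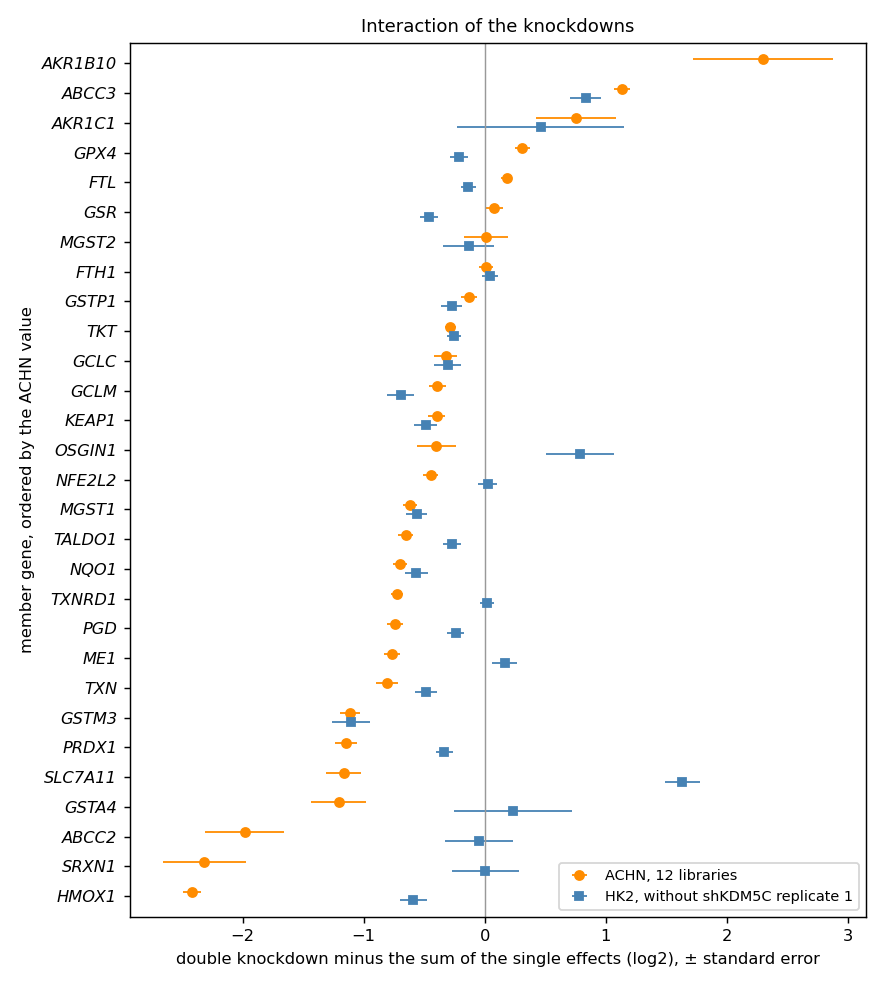
Interaction of the knockdowns (Dsh effect less the added shKDM5C and shYY1 effects, log2, with standard error) for each member tested, in ACHN (orange circles, 12 libraries) and in HK2 without shKDM5C replicate 1 (blue squares). HMOX1 and SRXN1 lie below -2 in ACHN, SLC7A11 lies at -1.17 in ACHN and 1.63 in HK2, and ABCC3 lies above 0 in both.

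The effect of each knockdown was then compared between the lines, as a difference of log2 fold changes. Knockdown depth was not equal: in Dsh, KDM5C and YY1 themselves fell less in ACHN than in HK2, and both differences were called. The Dsh effect differed in 19 of 30 members tested, 5 more positive and 14 more negative in ACHN (background 46.0%, 23.3% more positive and 22.7% more negative). The differences were widest for SRXN1 (-2.69 ± 0.27, adjusted p = 2.01e-09), SLC7A11 (-1.89 ± 0.15, adjusted p = 2.25e-11), TXNRD1 (-1.69 ± 0.06, adjusted p = 1.35e-19), PRDX1 (-1.18 ± 0.08, adjusted p = 6.55e-13) and PGD (-1.06 ± 0.07, adjusted p = 2.84e-13). The members more positive in ACHN were MGST1 (0.88), MGST2 (0.59), KEAP1 (0.51), GPX4 (0.39) and FTL (0.39); the call of MGST2 was lost in 4 of 12 fits that left out a library (adjusted p up to 0.0844). The shYY1 effect differed in 13 of 29 members, 5 more positive and 8 more negative in ACHN (background 33.1%, 16.6% and 16.5%), with TXNRD1 at -0.88 ± 0.05 (adjusted p = 1.38e-14) and HMOX1 at 0.67 ± 0.09 (adjusted p = 8.11e-07). The shKDM5C effect differed in 6 of 29, 3 in each direction (background 11.9%, 5.74% more positive and 6.18% more negative), or in 14 of 30, 7 in each direction, without HK2 shKDM5C replicate 1 (background 33.9%, 18.6% and 15.4%). HMOX1 was the widest of these (1.52 ± 0.31, adjusted p = 0.00913; 1.23 ± 0.07, adjusted p = 2.13e-14 without that library), and GSTA4 had 1.06 ± 0.24 (adjusted p = 0.0148; 1.201 ± 0.27, adjusted p = 0.000637 without it).

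**Figure D5:**
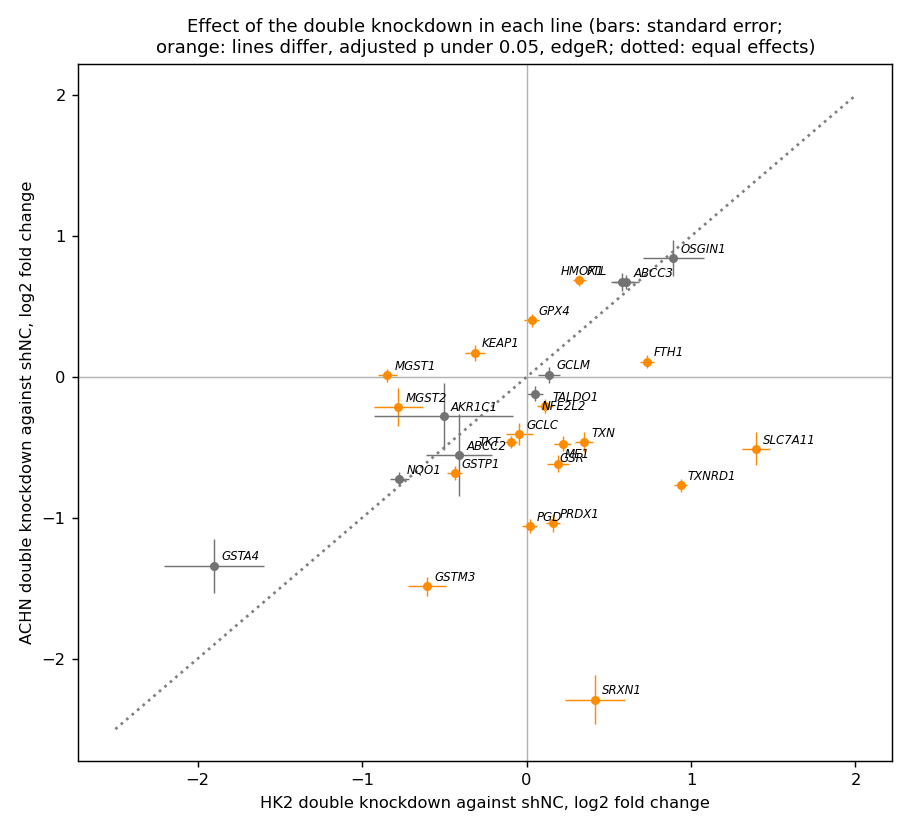
Log2 fold change of each member in Dsh against shNC, in HK2 (horizontal) and ACHN (vertical), with standard errors; orange members differed between the lines (adjusted p under 0.05, edgeR), and the dotted line marks equal effects. SRXN1, SLC7A11, TXNRD1, PRDX1 and PGD lie far below the dotted line, and NQO1, HMOX1, ABCC3 and OSGIN1 lie on or near it.

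Other genes of the pathway, 54 that are not members and of which 53 were found, were read by the same fits. Of 52 tested in ACHN, 22 were higher and 14 lower in shKDM5C, 17 higher and 18 lower in shYY1, and 18 higher and 26 lower in Dsh, where 56.6%, 48.7% and 62.6% of all genes were called. Of 51 tested in HK2, 1 was higher and none lower in shKDM5C, 16 were higher and 7 lower in shYY1, and 19 were higher and 16 lower in Dsh, where 1.32%, 29.1% and 49.8% of all genes were called. Without HK2 shKDM5C replicate 1, 12 of the 51 were higher and 5 lower in shKDM5C (background 22.3%). Among 11 regulators and partners of NRF2, such as its relative NFE2L1 and the small MAF genes, 9 were higher and 2 lower in ACHN Dsh and 7 higher and 1 lower in HK2 Dsh. Among 18 further NADPH and detoxification genes tested in ACHN, 3 were higher and 12 lower in Dsh, with a median of -0.33 on the log2 scale, and among 17 in HK2, 4 were higher and 7 lower, with a median of 0.01. The direction of the NADPH members in ACHN Dsh was thus also the direction of most of these genes.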

How the data were processed

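Total RNA was sequenced as paired reads. Per the labels and the study's methods, the authors aligned reads with HISAT2 v2.0.5 and counted them per gene with featureCounts against the GRCh38 Ensembl release 84 annotation; the version is v2.0.1 in the file headers and v1.5.0-p3 in the methods, and no strand option is listed. The deposited values are raw counts per gene for each library. Symbols were matched from Ensembl identifiers (56558 of 60675 genes; the rest held 0.243% of counts). Each comparison was fitted on the raw counts of its own groups with edgeR 4.0.16 (R 4.3.3): filterByExpr, TMM, quasi-likelihood F test, Benjamini-Hochberg over all genes tested, threshold 0.05. Standard errors were the log2 fold change over the root of F. CPM shown used 1 TMM scaling over all 24 libraries. Interactions and differences between lines were contrasts in 12-library fits. Values were given per library for NFE2L2, KEAP1, NQO1, GCLC, GCLM, TXNRD1, SRXN1, HMOX1, SLC7A11 and every member called with a log2 change of 1 or more in size in any of 6 comparisons of a knockdown with shNC; between lines, members past that size were named. Values of other members are given as examples. Scripts were tested on simulated data. The members and lists were chosen with earlier results of these data known. DESeq2 1.42.0 and the other alternatives are in the closing section.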

Additional observations from a re-analysis of the deposited data

Results flagged for a closer look

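The members below had effects that differed between ACHN and HK2 by a test of the difference itself (contrast in a 12-library edgeR fit, adjusted over all genes). The Dsh effect differed in 19 members, among them SRXN1 (log2 difference, ACHN minus HK2, -2.69), SLC7A11 (-1.89), TXNRD1 (-1.69), PRDX1 (-1.18) and PGD (-1.06). The shYY1 effect differed in 13 members, none of them by 1 or more. The shKDM5C effect differed in 6 members, among them HMOX1 (1.52) and GSTA4 (1.06); without HK2 shKDM5C replicate 1 it differed in 14, with HMOX1 at 1.23 and GSTA4 at 1.201. The background share of all genes called was 46.0% for Dsh, 33.1% for shYY1 and 11.9% for shKDM5C (33.9% without that library), so a difference between the lines was common among all genes. KDM5C averaged 70.3 CPM in ACHN shNC and 42.8 in shKDM5C, against 192 and 56.9 in HK2 (67.4 without replicate 1). YY1 averaged 138 CPM in ACHN shNC and 76.4 in shYY1, against 209 and 64.1 in HK2. The knockdowns thus went less deep in ACHN. The part of knockdown depth, line, clone and infection in these differences was not tested.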

How the results depend on the processing

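Of 6761 member values recomputed under an alternative, 6427 kept direction and side of the threshold, 214 lost the call, 116 gained one and 4 reversed. All 4 reversals came without HK2 shKDM5C replicate 1; over the fits that leave out a library, HK2 Dsh against shKDM5C ran from -0.15 to 0.33 for GSTP1 and from -0.18 to 0.29 for HMOX1, the HK2 interaction of GPX4 from -0.21 to 0.38, and the shKDM5C difference between lines of GSTP1 from -0.26 to 0.23. With all groups of a line in the fit, which then includes that library, the number of members called was 4 for HK2 shKDM5C, 5 for HK2 shYY1 and 10 for HK2 Dsh against shNC (7.84%, 5.42% and 22.9% of all genes), 10 for HK2 Dsh against shKDM5C, 9 for HK2 Dsh against shYY1 and 5 for the shYY1 difference between lines (27.2%, 22.0% and 14.4%); DESeq2 called 4 for HK2 shKDM5C (4.99%), and 5 HK2 interactions were called without a filter on low counts (6.30%); the cause was not tested. Leaving out each replicate in turn gave 0 to 14 members for HK2 shKDM5C, 13 to 18 for HK2 shYY1, 17 to 20 for HK2 Dsh, 0 to 16 for HK2 Dsh against shKDM5C, 15 to 20 for HK2 Dsh against shYY1, 5 to 18 for the HK2 interaction, and 5 to 14 and 11 to 13 for the shKDM5C and shYY1 differences between lines. The ACHN counts stayed within 1.5 times under every alternative run. With total counts as the scaling, 56.8% rather than 48.2% of all genes called in the ACHN interaction were above 0.

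Replicate numbers did not pair the libraries: the deviations of same-numbered libraries correlated at -0.03 to 0.04 in ACHN and -0.06 to 0.03 in HK2. With a replicate block, 3 members were called for HK2 Dsh against shKDM5C and 3 for the shKDM5C difference between lines; the block moved no other count of members by over 1.5 times.

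GSTA4, ABCC2, AKR1B10, AKR1C1 and SRXN1 rest on few counts, and GPX2, AKR1C2 and AKR1C3 on fewer: with no filter AKR1C2 was called in ACHN shKDM5C and AKR1C3 in ACHN Dsh.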
